A study of Mus musculus with 18 samples.

Results

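The small RNA of unexposed mouse embryonic stem (ES) cells was read by RNAome sequencing and by a dedicated small RNA protocol, and the microRNA and tRNA profiles of the 2 protocols are compared here. The members were chosen by label: 6 control libraries, 3 per protocol, of 18 libraries in all. The cells were HPRT-deficient C57BL/6 ES cells at passage 19 to 22, grown on feeder cells and then for 1 passage on gelatin, and the controls received the vehicle DMSO in place of the 2.5 µM cisplatin given to the other cells. HPRT is a purine salvage enzyme, and its deficiency was shared by all samples. For RNAome, total RNA was stripped of ribosomal RNA and sheared before small RNA adapters were ligated, and the gel selection kept long RNA fragments together with small RNA. Small RNA libraries were made from total RNA with the TruSeq small RNA kit, without depletion or shearing. The same 3 control codes, 8.4.16, 8.5.16 and 8.6.16, occur in each protocol, and the design text says that 6 samples in all were sequenced. Libraries with the same code may thus share their RNA, which the labels do not state. The question the design raises is how far the small RNA levels of the combined method match those of the dedicated one.

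MicroRNAs are short RNAs cut from hairpin precursors by Drosha and Dicer. Bases 2 to 8 of the mature strand, the seed, pair with target mRNAs, so microRNAs with the same seed have overlapping targets. In mouse ES cells the miR-290-295 cluster is the characteristic pluripotency-associated group, and let-7 microRNAs are kept low by Lin28. tRNAs are also cut into shorter pieces, and a piece that runs from the start of the tRNA to its anticodon loop, or one that ends in the added CCA of the mature 3′ end, is a common product.

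The sequences below show the microRNAs on which the comparison turns. They are mature sequences from RefSeq (build GRCm38.p6), 5′ to 3′, with the seed in capitals. With the scaling used below, these microRNAs stood higher in RNAome, miR-182-5p by the least and not with every scaling.
miR-183-5p (chr6:30169711-30169732, minus strand): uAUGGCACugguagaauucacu
miR-182-5p (chr6:30165962-30165986, minus strand): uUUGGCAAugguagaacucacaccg
miR-146a-5p (chr11:43374435-43374456, minus strand): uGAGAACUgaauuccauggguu
miR-146b-5p (chr19:46342790-46342811, plus strand): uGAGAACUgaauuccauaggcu
miR-191-5p (chr9:108568325-108568347, plus strand): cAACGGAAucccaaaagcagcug
miR-10b-5p (chr2:74726074-74726096, plus strand): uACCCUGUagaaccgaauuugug
miR-99b-5p (chr17:17830194-17830215, plus strand): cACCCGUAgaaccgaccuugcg
miR-379-5p (chr12:109709065-109709085, plus strand): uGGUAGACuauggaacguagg
The microRNAs below include the most abundant of small RNA sequencing and relatives with the same seed. With that scaling, though not with every scaling, miR-25-3p and miR-294-3p differed in the opposite direction.
miR-92a-3p (1 of 2 loci, chr14:115044476-115044496, plus strand): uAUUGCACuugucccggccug
miR-25-3p (chr5:138165332-138165353, minus strand): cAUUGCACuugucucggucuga
miR-295-3p (chr7:3220815-3220837, plus strand): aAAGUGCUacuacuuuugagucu
miR-294-3p (chr7:3220691-3220712, plus strand): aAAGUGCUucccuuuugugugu
miR-411-3p (chr12:109710225-109710246, plus strand): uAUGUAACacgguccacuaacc
miR-674-5p (chr2:117185151-117185172, plus strand): gCACUGAGaugggaguggugua

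The deposited tables held 1587446 to 3234388 counts per control in RNAome and 7190893 to 13428891 in small RNA sequencing. Of these counts, microRNAs took 27.7%, 38.2% and 32.5% in RNAome against 62.8%, 51.1% and 57.6% in small RNA sequencing (in the order 8.4.16, 8.5.16, 8.6.16, used throughout). The ranges did not overlap, and the exact two-sided permutation p was 0.1, the smallest that 3 against 3 libraries can give. Entries marked as fragments, which were left out of all that follows, made up 64.6% ± 5.29 of RNAome counts and 39.9% ± 6.14 of small RNA counts (SD, n = 3 each). tRNA rows took 2.57% ± 0.0864 and 2.92% ± 0.299 (exact permutation p = 0.2). Each table lists 1 row per sequence, and no value was below 1 in the RNAome table or below 5 in the small RNA table, so an undetected sequence cannot be told from one at that lowest value. A name listed in 1 table alone cannot be read as absent from the other. Of microRNA names, 473 were in both tables, 20 in the RNAome table alone and 96 in the small RNA table alone, and the last had a median of 17.5 counts per control library. The most abundant of them was miR-6244, with 301 counts on average.

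Counts were scaled by TMM, which sets the bulk of features equal between libraries, and are given as CPM, counts per 1000000 of the scaled library total. Of 448 microRNAs and 45 anticodons tested, 64.3% passed edgeR's quasi-likelihood test at an adjusted p under 0.05, 32.5% higher and 31.8% lower in RNAome, and 71.8% had groups that did not overlap. This background of calls is high, so a call alone says little about a microRNA. Among microRNAs 63.8% were called, 29.7% higher in RNAome and 34.2% lower, with a median log2 difference of -0.09 and no overlap in 71.7%. By at least 1 on the log2 scale, 23% were higher and 25.7% lower, against 25.2% and 23.5% of all features. The log2 difference was under 1 in size for 222 microRNAs (49.6%), over 2 for 90 and over 4 for 15. Across features the Spearman rho was 0.969 to 0.98 between RNAome libraries, 0.985 to 0.994 between small RNA libraries and 0.827 to 0.871 between protocols. Those rho values describe features of the same libraries and carry no test.

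The split of calls rests on the scaling. With each library scaled to its microRNA total and no TMM, the log2 differences moved by -0.87, and 58 microRNAs were called higher and 253 lower, so that higher calls made up 18.6% of calls. Scaled to the whole table, fragments included, they moved by -1.67, and 41 features were called higher and 366 lower, against 160 and 157 with TMM. Directions below are therefore relative to the bulk of small RNAs, and a positive difference under about 1.67 would turn negative on the table scale. The large difference of miR-183-5p kept its sign on every scale and setting tried. Size alone did not ensure this, as miR-1195 had a log2 difference of -1.70 in control and 1.49 in cisplatin libraries.

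**Figure D1:**
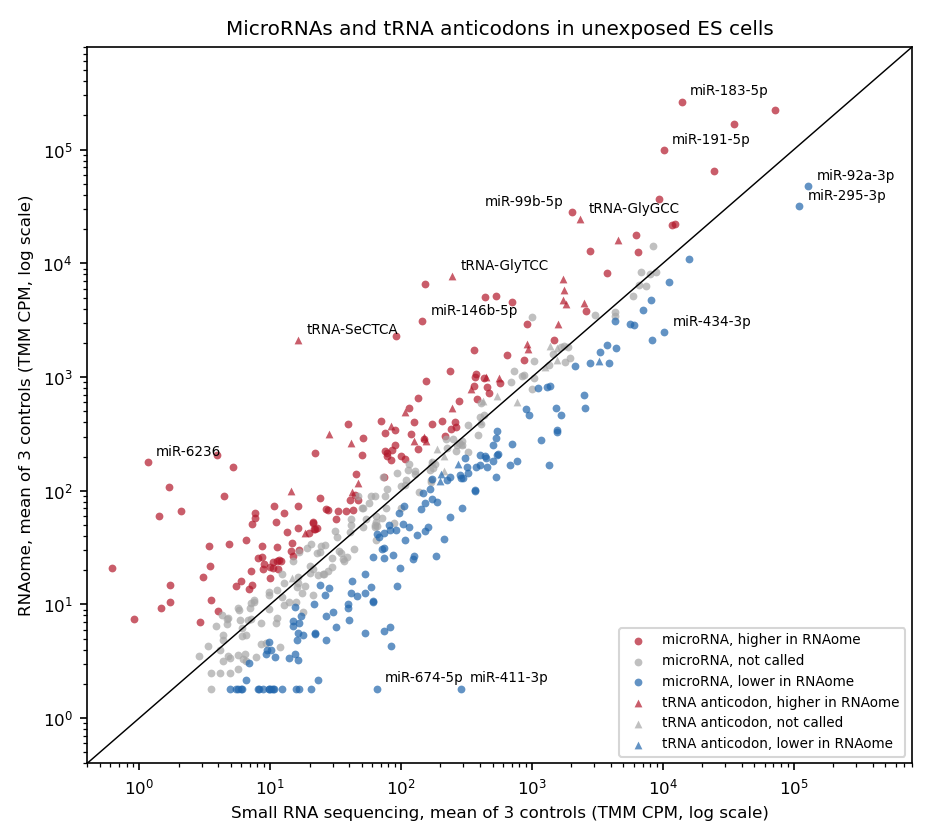
Mean TMM-scaled CPM of 448 microRNAs (circles) and 45 tRNA anticodons (triangles) in 3 RNAome controls (y axis) and 3 small RNA controls (x axis), both on log scales, with the line of equality and calls at an adjusted p under 0.05. miR-183-5p lies far above the line and miR-92a-3p and miR-295-3p lie below it, while miR-411-3p and miR-674-5p sit on the row of points that marks the lowest value of the RNAome table.

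The leading microRNAs were not the same. miR-183-5p, a member of the miR-183/96/182 cluster best known from sensory organs, was the most abundant microRNA of RNAome and ranked 7 in small RNA sequencing. It had 240794, 241708 and 310403 CPM in RNAome, against 13850, 16632 and 11303 CPM in small RNA sequencing. The groups were far apart, with a log2 difference of 4.25 ± 0.20 (SE, edgeR adjusted p = 7.8e-07). Its share of all microRNA counts was 20.9%, 19.0% and 21.9% in RNAome and 2.03%, 2.25% and 1.73% in small RNA sequencing.

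miR-92a-3p, the most abundant microRNA of small RNA sequencing and a product of the miR-17-92 cluster, ranked 6 in RNAome. It had 44356, 47354 and 52668 CPM in RNAome, against 128393, 135457 and 121464 CPM in small RNA sequencing, a log2 difference of -1.42 ± 0.13 (edgeR adjusted p = 2.56e-05). miR-295-3p, of the ES cell cluster, ranked 8 in RNAome and 2 in small RNA sequencing. It had 37652, 34090 and 24254 CPM in RNAome, against 105381, 117675 and 106308 CPM, a log2 difference of -1.78 ± 0.18 (edgeR adjusted p = 3.85e-05). For both, every RNAome library was below every small RNA library. Of the 10 most abundant microRNAs of each protocol, 7 were shared. The 10 most abundant took 75.04% to 79.2% of microRNA counts in RNAome and 62.7% to 63.0% in small RNA sequencing.

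Several other abundant microRNAs were higher in RNAome. miR-127-3p, from the imprinted Dlk1-Dio3 region, had 125675, 206966 and 168815 CPM in RNAome, against 34883, 41242 and 29183 CPM, a log2 difference of 2.25 ± 0.21. miR-191-5p, a broadly expressed microRNA, had 70168, 88316 and 136978 CPM in RNAome, against 10143, 10366 and 9964 CPM, a log2 difference of 3.28 ± 0.25. The RNAome values of miR-191-5p varied widely among themselves while the small RNA values lay close together. miR-99b-5p, which was named after its values were seen, had 30468, 34070 and 19564 CPM in RNAome, against 2582, 2026 and 1472 CPM, a log2 difference of 3.79 ± 0.29. Each passed edgeR's test (adjusted p of 2.56e-05, 9.63e-06 and 1.02e-05). miR-21a-5p, abundant in fibroblasts and many other cells, had 5669, 5428 and 4498 CPM in RNAome, against 6105, 6105 and 5393 CPM. Its groups overlapped, with a log2 difference of -0.17 ± 0.17 (edgeR adjusted p = 0.383).

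**Figure D2:**
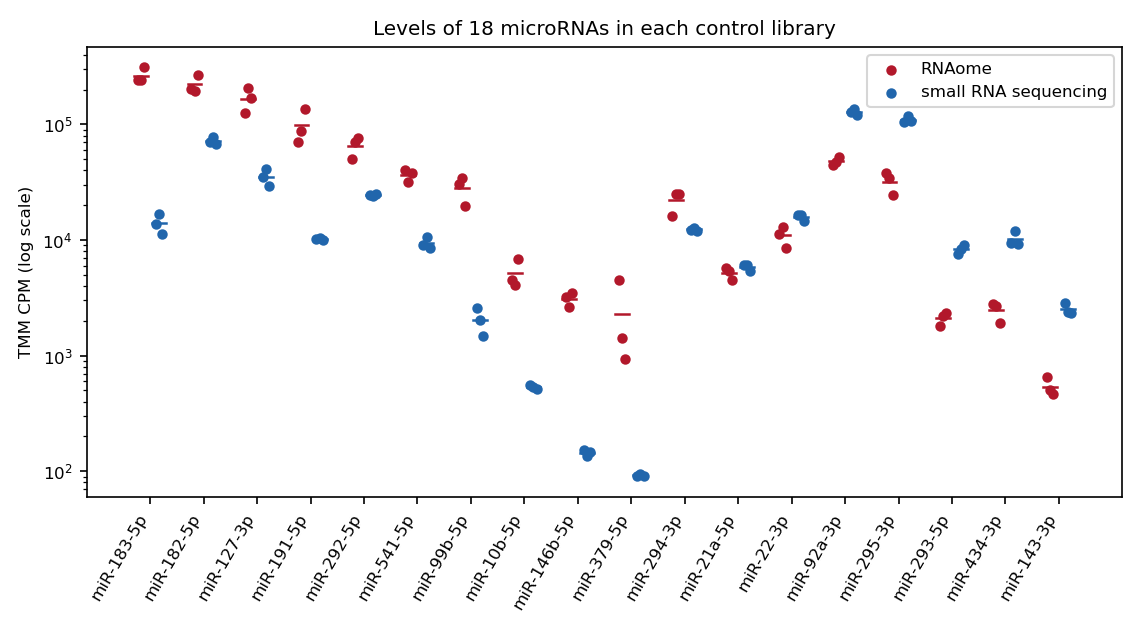
TMM-scaled CPM (log axis) of 18 microRNAs in each control library, RNAome in red at the left of each pair and small RNA sequencing in blue at the right, with bars at the means of 3 libraries. The miR-146b-5p points lie at 2650 to 3475 in RNAome and at 135 to 151 in small RNA sequencing, while those of miR-21a-5p overlap.

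The largest positive differences among microRNAs with a mean log2 CPM of at least 3.3 fell on 2 kinds of name. The first were well-known microRNAs of low or middle abundance in small RNA sequencing. miR-146a-5p and miR-146b-5p, which share a seed and are known as feedback regulators of inflammatory signalling, were about equally far apart. miR-146b-5p had 3208, 2650 and 3475 CPM in RNAome, against 151, 135 and 148 CPM in small RNA sequencing, a log2 difference of 4.43 ± 0.20 (edgeR adjusted p = 7.8e-07). miR-146a-5p had 67.0, 110 and 93.3 CPM in RNAome, against 4.79, 4.42 and 4.07 CPM, a log2 difference of 4.35 ± 0.25 (edgeR adjusted p = 1.86e-06). miR-379-5p, from the Dlk1-Dio3 region, had 4534, 1412 and 930 CPM in RNAome, against 90.3, 95.1 and 91.5 CPM, a log2 difference of 4.64 ± 0.57. Library 8.4.16 stood high there, and without it the difference was 3.64 (edgeR adjusted p = 1.21e-05).

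The others bear high miRBase numbers, given to entries found late by sequencing. miR-6236, miR-5117-5p, miR-5097, miR-3096a-3p, miR-3470b and miR-5105 had 59.4 to 207 CPM on average in RNAome and 1.16 to 5.16 CPM in small RNA sequencing. The small RNA means of these rested on 6 to 62 counts per library, in a table where no row is below 5. Of the RNAome counts of miR-3470b, 48.1% were in values at the lowest of the RNAome table. With lowest values set to 0 its log2 difference was 3.92 in place of 4.98. miR-6243 had 7311, 3383 and 9161 CPM in RNAome, against 4.14, 446 and 5.43 CPM in small RNA sequencing, where library 8.5.16 stood apart. Its log2 difference was 5.45 ± 1.63 (edgeR adjusted p = 0.0153), and 10.40 without that library. The SD of its log2 CPM in small RNA sequencing, 3.63, was the highest of 159 microRNAs with at least 100 CPM in each protocol, followed by miR-5115 at 2.54 and miR-5109 at 1.97. Over all 59 tested microRNAs numbered 1000 or more, 25 were higher and 15 lower, with a median log2 difference of 0.48, against a median of -0.14 for the 389 with lower numbers. Of those 389, 108 were higher and 138 lower. Among all microRNAs 29.7% were higher and 34.2% lower.

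At the other end, several microRNAs that small RNA sequencing read well were at or near the lowest value in RNAome. miR-411-3p stood at 1 count in each of the 3 RNAome libraries and at 3614, 1518 and 2943 counts in small RNA sequencing. miR-674-5p likewise stood at 1, 1 and 1 counts in RNAome and at 880, 319 and 665 counts in small RNA sequencing. These RNAome values are the lowest the table holds, so no fold is given for them. In RNAome 22 tested names had every row at that lowest value in all 3 controls, and 38 had no more than 3 counts in any control, of which 28 were called lower. miR-210-5p, the lesser strand of the hypoxia-induced miR-210 hairpin, had 3, 5 and 1 counts in RNAome and 1231, 409 and 750 counts in small RNA sequencing. miR-376a-5p had 6, 2 and 2 counts against 894, 427 and 695, miR-291b-3p had 5, 5 and 2 against 951, 490 and 788, and miR-702-3p had 4, 2 and 3 against 626, 272 and 593. The remaining 4 of the 10 lowest among microRNAs with a mean log2 CPM of at least 3.3, miR-187-3p, miR-96-3p, miR-301a-5p and miR-1968-5p, had 1 or 2 counts in every RNAome control. Among abundant microRNAs the decreases were smaller. miR-434-3p, named after its values were seen, had 2823, 2681 and 1920 CPM in RNAome, against 9464, 11975 and 9166 CPM, a log2 difference of -2.04 ± 0.21 (edgeR adjusted p = 3.86e-05). miR-143-3p, a smooth muscle and fibroblast microRNA, had 652, 502.8 and 463.5 CPM in RNAome, against 2876, 2369 and 2360 CPM, a log2 difference of -2.23 ± 0.21 (edgeR adjusted p = 2.36e-05).

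The members of the miR-290-295 cluster did not share 1 difference. Of 14 tested, 5 were higher, 5 lower and 4 did not pass the test, with a median log2 difference of -0.08, against 29.7% higher, 34.2% lower and a median of -0.09 for all microRNAs. With microRNA totals 1 was higher and 8 lower, and with table totals none was higher and 12 were lower. Counts of higher and lower members are on the TMM scale for every list below too, and with microRNA totals none of the 13 lists had more higher than lower members. miR-292-5p had 49968, 70196 and 76576 CPM in RNAome, against 24455, 24011 and 25037 CPM, a log2 difference of 1.42 ± 0.18 that became -0.27 on the table scale (edgeR adjusted p = 0.000134 with TMM). miR-294-3p, with the cluster's AAGUGCU seed, had 16054, 24738 and 25167 CPM in RNAome, against 12320, 12682 and 12066 CPM. Its log2 difference of 0.83 ± 0.20 (edgeR adjusted p = 0.00461) became -0.07 on the microRNA scale and -0.85 on the table scale. miR-293-5p had 1797, 2195 and 2318 CPM in RNAome, against 7587, 8294 and 9118 CPM, a log2 difference of -1.99 ± 0.18 (edgeR adjusted p = 2.24e-05). Summed, the cluster took 11.9% to 13.7% of microRNA counts in RNAome and 27.3% to 29.1% in small RNA sequencing, and miR-295-3p alone took 1.71% to 3.27% and 15.4% to 16.3%. The labelled ES cells thus carried their defining microRNAs in both protocols. The related miR-302-367 cluster, which is higher in primed cells, took 0.0201% to 0.0361% in RNAome and 0.0392% to 0.0487% in small RNA sequencing. Of 5 tested miR-302-367 names 1 was lower, miR-302a-5p with 2 counts in every RNAome control, and none was higher. That call was lost without RNAome library 8.5.16 (log2 difference -1.16, edgeR adjusted p = 0.11).

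The 3 microRNAs of the miR-183 cluster, which come from 1 precursor transcript, also diverged. miR-182-5p had 203975, 192766 and 267340 CPM in RNAome, against 70820, 77268 and 67462 CPM, a log2 difference of 1.62 ± 0.16 (edgeR adjusted p = 2.95e-05) that became -0.08 on the table scale. miR-96-5p had 392, 209 and 192 CPM in RNAome, against 339, 261 and 238 CPM, with overlapping groups and a log2 difference of -0.07 ± 0.28 (edgeR adjusted p = 0.817). The cluster took 34.2% to 40.8% of microRNA counts in RNAome and 12.1% to 12.8% in small RNA sequencing.

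In the miR-17-92 cluster and its paralogs, which promote proliferation, 7 of 24 tested members were higher and 10 lower, with a median of -0.26. For this list and the next, the background of all microRNAs was 29.7% higher and 34.2% lower, with a median of -0.09. miR-25-3p, which shares its seed with miR-92a-3p, had 17114, 18073 and 18072 CPM in RNAome, against 6313, 6284 and 6168 CPM. Its log2 difference was 1.505 ± 0.146 (edgeR adjusted p = 2.66e-05), -0.19 on the table scale. In the miR-15/16 family, regulators of the cell cycle, 8 of 11 were lower and 2 higher, with a median of -0.99. miR-16-5p, its most abundant member, had 9208, 8267 and 7169 CPM in RNAome, against 3335, 3494 and 4374 CPM, a log2 difference of 1.14 ± 0.19 (edgeR adjusted p = 0.000624) that became -0.56 on the table scale. miR-497-5p, with an average of 70.8 CPM in RNAome and 292 CPM in small RNA sequencing, had a log2 difference of -2.03 ± 0.20.

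The let-7 family, low in ES cells, took 0.0432% to 0.0797% of microRNA counts in RNAome and 0.0783% to 0.113% in small RNA sequencing. Of 9 tested members 2 were higher and 1 lower. Among all microRNAs 29.7% were higher and 34.2% lower, the background for the lists that follow here too. let-7g-5p had 6.70, 5.15 and 8.23 CPM in RNAome, against 4.14, 6.03 and 3.98 CPM, with overlapping groups (edgeR adjusted p = 0.333). let-7e-5p had a log2 difference of 1.17 ± 0.23 (edgeR adjusted p = 0.00171), -0.54 on the table scale. In the miR-200 family, which maintains the epithelial state, 2 of 8 were higher and 1 lower. In the joint family of miR-34, a target of p53, and miR-449, 1 of 6 was lower. This was miR-34c-5p, with a log2 difference of -1.93 ± 0.25. The miR-200a-5p call was lost when any 1 library was left out, except RNAome library 8.6.16. In the Dlk1-Dio3 region 18 of 75 were higher and 28 lower (median -0.12), and in the Sfmbt2 cluster, a rodent group with near-identical copies whose counts may be split, 7 of 27 were higher and 12 lower (median -0.41). Drosha-independent microRNAs gave 2 higher and 2 lower of 4, and the higher call of miR-877-3p was lost without RNAome library 8.5.16 or 8.6.16 (edgeR adjusted p of 0.0842 and 0.0636).

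Markers of feeder fibroblasts were measured in both protocols. Of 17 listed names 3 were in the small RNA table alone, and of the 14 tested 5 were higher and 3 lower, with a median of 0.52. Among all microRNAs 29.7% were higher and 34.2% lower, the background also for the tissue-restricted markers below. The sum of the feeder markers took 1.54% to 2.08% of microRNA counts in RNAome and 3.52% to 3.91% in small RNA sequencing. The feeder markers did not move together. miR-10b-5p had 4524, 4084 and 6794 CPM in RNAome, against 553, 533 and 514 CPM, a log2 difference of 3.27 ± 0.24, while miR-143-3p differed in the opposite direction. Tissue-restricted markers took 0.0983% to 0.113% in RNAome and 0.239% to 0.297% in small RNA sequencing, with 3 of 5 tested names lower and none higher. The call of 1 of them, miR-124-5p, with 2 or 3 counts in RNAome, was lost without RNAome library 8.5.16 (edgeR adjusted p = 0.0665).

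**Figure D3:**
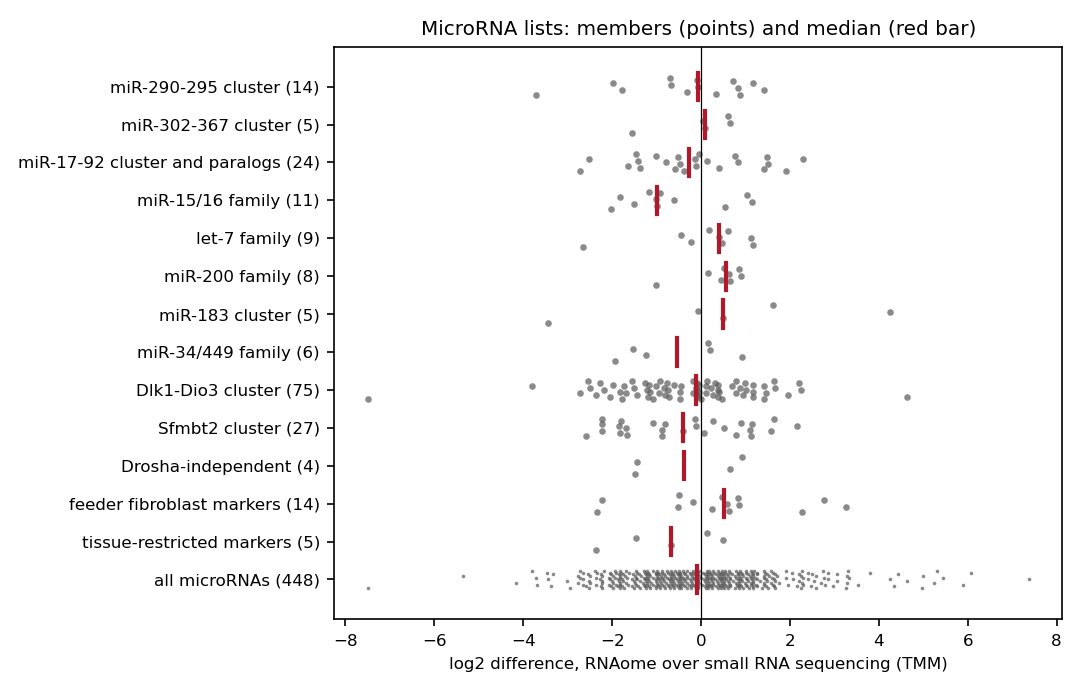
Log2 differences (RNAome over small RNA sequencing, TMM scale) of the tested members of 13 microRNA lists and of all 448 tested microRNAs, 1 point per microRNA, with a red bar at each median. Members of most lists lie on both sides of 0, and list medians range from -0.99 for the miR-15/16 family to 0.57 for the miR-200 family.

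Sequence was set beside these differences as a description. For 354 of the 448 microRNAs a RefSeq mature sequence was matched. Spearman's rho with the difference was 0.10 for GC content and 0.09 for length across these microRNAs. On the TMM scale a shared seed did not fix the direction. Among 39 seeds shared by 105 microRNAs, the median range of differences within a seed was 1.08. With TMM 7 seeds held members called in both directions, a split that rests on the scaling. The AUUGCAC group ran from -2.51 for miR-32-5p, with 2 to 4 counts in RNAome, to 1.505 for miR-25-3p. The 3 microRNAs with the CAGUGCA seed, miR-148a-3p, miR-148b-3p and miR-152-3p, were all higher, by 0.95 to 5.25. Both microRNAs with the ACCCUGU seed, miR-10a-5p and miR-10b-5p, were higher, as were both with the ACCCGUA seed, miR-99b-5p and miR-100-5p. The background of higher calls was 29.7% of all microRNAs.

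Some of the highest differences shared a string of bases outside the seed. In the 34 to 36 nt rows of the small RNA table that begin with a complete mature sequence, GAAUUCUC was the most frequent run of 8 bases in what follows it, and 66.2% of the counts of these rows held it. As background, these are bases of the 3′ adapter of the kit family used for both library types. The string GAAUUC lay in 5 matched microRNAs, 4 of them higher, beside 29.7% of all microRNAs. Their median log2 difference was 4.25, against -0.17 for those without the string (0.536% of all RefSeq mature sequences hold it). miR-146a-5p and miR-146b-5p, both among the 5, share most of their sequence and are not separate instances. The 5 were miR-183-5p, miR-146a-5p, miR-146b-5p, miR-186-5p at 0.54 and miR-377-5p at 0.37, of which the last did not pass the test. The 6 microRNAs with at least 6 bases in common with GAAUUCUC had a median of 2.39, the 15 with 5 bases 0.65, the 76 with 4 bases -0.43 and the remaining 257 -0.09. miR-376a-5p, with 6 bases, went the other way at -3.79. Of 51 strings of 5 letters held by at least 15 microRNAs, GUAGA had the highest median, 1.48 over 20 microRNAs, against -0.18 without it. These strings were picked after the values were seen, and their part in the differences was not tested.

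For 63 hairpins both arms averaged at least 10 counts in each protocol, so the ratio of arms could be set side by side within a library, where scaling has no effect. The log2 ratio of the 5p to the 3p arm differed between protocols by a median of 1.33 in size, and the ratios did not overlap in 48 hairpins. The larger arm was not the same in 5, with all RNAome libraries opposed to all small RNA libraries. On average miR-18b (-1.01 in RNAome, 0.96 in small RNA sequencing) and miR-296 (-0.43 and 0.07) also turned. Their RNAome libraries were not all of 1 sign, so these are not counted. For miR-106b, of a miR-17-92 paralog, the log2 ratio was -2.09, -1.66 and -2.37 in RNAome and 1.91, 1.63 and 1.76 in small RNA sequencing. For miR-28a it was -1.52, -1.67 and -1.75 in RNAome and 2.22, 1.80 and 2.28 in small RNA sequencing. For miR-379 it was 3.45, 1.95 and 1.53 in RNAome and -1.63, -1.60 and -1.29 in small RNA sequencing. For miR-708 it averaged 0.58 ± 0.42 in RNAome and -0.93 ± 0.25 in small RNA sequencing, and for miR-872 it averaged 0.42 ± 0.34 and -0.31 ± 0.12 (SD, n = 3 each). The miR-183 arms kept their order in both, with log2 ratios of 9.77 ± 0.34 in RNAome and 6.00 ± 0.44 in small RNA sequencing (SD, n = 3 each).

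The ends of the reads were compared against the RefSeq mature sequence. The exact mature sequence took 49.1%, 50.3% and 47.5% of matched microRNA counts in RNAome, against 58.6%, 58.1% and 58.4% in small RNA sequencing (exact permutation p = 0.1, 3 against 3). The order turned when miR-182-5p and miR-183-5p were left out, with shares of 64.9%, 65.0% and 66.1% in RNAome, against 59.8%, 59.4% and 59.7%. miR-182-5p was read without its last base in 70.1%, 69.7% and 70.3% of its counts in RNAome, against 31.2%, 31.1% and 31.6% in small RNA sequencing, the largest such gap among 14 abundant microRNAs. The 24 nt rows held 17.1% ± 1.61 of microRNA counts in RNAome and 9.95% ± 0.262 in small RNA sequencing (SD, n = 3 each). Without miR-182-5p they held 5.69% to 6.77% and 7.26% to 7.78%.

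The start of the reads differed less. Reads beginning at the annotated first base made up 91.0% ± 0.408 in RNAome and 91.1% ± 0.0901 in small RNA sequencing (exact permutation p = 0.8). A start 1 base later, which shifts the seed, took 7.70% ± 0.397 of counts in RNAome and 6.83% ± 0.095 in small RNA sequencing, and a start 1 base earlier took 0.637% ± 0.0858 and 1.26% ± 0.0376 (SD, n = 3 each). Neither pair of groups overlapped (exact permutation p = 0.1). These pooled shares are weighted by abundance and were not computed without the leading microRNAs. miR-183-5p, for example, took 19.0% to 21.9% of microRNA counts in RNAome and 1.73% to 2.25% in small RNA sequencing. Within single microRNAs the difference could go the other way. The later start took 29.1%, 28.2% and 28.2% of miR-183-5p counts in RNAome, against 31.2%, 31.6% and 31.3%. For miR-295-3p it took 18.02%, 22.0% and 19.96% in RNAome, against 28.5%, 28.2% and 28.2%. An added A took 19.6%, 24.8% and 19.8% of miR-92a-3p counts in RNAome, against 29.8%, 31.1% and 28.1%. An added G took 27.4% to 30.6% of miR-183-5p counts in RNAome and 30.6% to 32.5% in small RNA sequencing. The tables list nearly no mature sequence with 1 added U, 0 rows in RNAome and 1 in small RNA sequencing, beside 130 and 170 rows with 1 added A. Rows short of 2 or more 3′ bases numbered 2 and 3, beside 207 and 261 rows short of 1, so shorter forms were not measurable here.

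**Figure D4:**
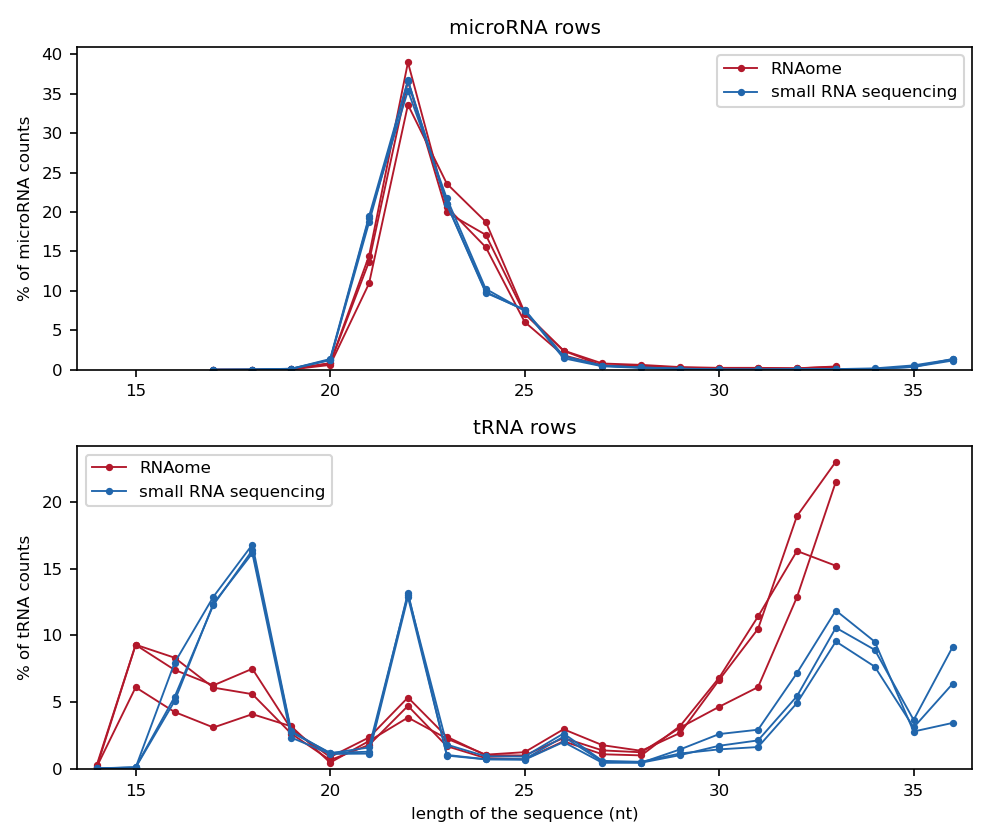
Percent of microRNA counts (top) and tRNA counts (bottom) by length of the sequence in nt, 1 line per control library, RNAome in red and small RNA sequencing in blue. RNAome lines end at 33 nt and small RNA lines at 36 nt, and the RNAome tRNA lines peak at 32 to 33 nt and again at 15 to 18 nt.

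tRNA pieces were mostly higher in RNAome relative to the bulk of small RNAs. Of 45 anticodons 27 were higher (60%) and 4 lower (8.89%), against 32.5% and 31.8% of all features. The median log2 difference was 0.93. In all 68.9% were called and 73.3% did not overlap, near the 64.3% and 71.8% of all features. By at least 1 on the log2 scale 46.7% of anticodons were higher and 2.22% lower, against 25.2% and 23.5% of all features. On the table scale 6 anticodons were higher and 24 lower, so the split rests on the scaling. All 3 glycine anticodons were among the higher ones. tRNA-GlyGCC had 30086, 14702 and 28154 CPM in RNAome, against 2803, 2086 and 2153 CPM, a log2 difference of 3.37 ± 0.29 (edgeR adjusted p = 1.65e-05). tRNA-GlyTCC had 10055, 5762 and 7246 CPM in RNAome, against 263, 265 and 211 CPM, a log2 difference of 4.96 ± 0.27 (edgeR adjusted p = 1.78e-06). tRNA-ValCAC had 12066, 15881 and 20584 CPM in RNAome, against 4845, 4449 and 4220 CPM, a log2 difference of 1.84 ± 0.22 (edgeR adjusted p = 7.9e-05). tRNA-ProAGG had 900, 1891 and 1344 CPM in RNAome, against 3025, 3545 and 3115 CPM, a log2 difference of -1.23 ± 0.27 (edgeR adjusted p = 0.00294), and the same 18-nt row led it in both protocols.

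tRNA-HisGTG had 6131, 5933 and 5318 CPM in RNAome, against 1839, 2129 and 1291 CPM, a log2 difference of 1.72 ± 0.22 (edgeR adjusted p = 0.000131). tRNA-AsnGTT had 561, 189 and 189 CPM in RNAome, with library 8.4.16 high, against 25.6, 35.4 and 22.9 CPM, a log2 difference of 3.50 ± 0.45 (edgeR adjusted p = 0.000139). By amino acid, both histidine, both isoleucine and both lysine anticodons were higher with TMM, beside 60% of all 45 anticodons. The isoleucine and lysine differences, 0.83 to 1.33, were under the about 1.67 below which the table scale turns the sign. None of the 3 alanine anticodons passed the test, with log2 differences of -0.35 to 0.21. tRNA-ArgTCG was at -0.73, tRNA-ValTAC at -0.66 and tRNA-GlnCTG at -0.52, and each of these calls was lost without small RNA library 8.5.16 (edgeR adjusted p of 0.0549, 0.0752 and 0.0587). Of the RNAome counts of tRNA-ArgTCG, 51.8% were in values at the lowest of the table. With lowest values set to 0 its log2 difference was -1.96, against -1.39 for tRNA-ProAGG. The most abundant row was the same in both protocols for 14 of 45 anticodons.

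The rows behind these anticodons differ in kind, as the deposited sequences show. Capitals mark GAAUUCUC in the glycine row and the run shared by the last 2 rows.
tRNA-GlyGCC, 32 nt, chromosome 1, leading row of RNAome: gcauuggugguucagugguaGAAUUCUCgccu
tRNA-ValCAC, 33 nt, chromosome 17, leading row of both: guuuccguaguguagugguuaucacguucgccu
tRNA-GlyTCC, 19 nt, chromosome 1, leading row of RNAome: auucccggcgaacgcacca
tRNA-GlyTCC, 22 nt, chromosome 1, leading row of small RNA sequencing: ucguuucccggccaacgcacca
tRNA-SeCTCA, 15 nt, chromosome 5, leading row of RNAome: CCACGUUGGGCGCCA
tRNA-LysCTT, 16 nt, chromosome 13, leading row of RNAome: cCCACGUUGGGCGCCA
The tRNA-GlyGCC and tRNA-ValCAC rows are pieces from the tRNA start, and the tRNA-GlyTCC rows end in CCA. Rows with GAAUUCUC held 87.1% to 93.4% of tRNA-GlyGCC counts in RNAome and 75.7% to 87.4% in small RNA sequencing. tRNA-GlyCCC also has such rows, at 46.1% to 75.1% and 36.1% to 52.4%, and had a log2 difference of 2.08 ± 0.21. tRNA-GlyTCC, with the highest difference of the 3 glycine anticodons, had none above 1%.

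tRNA-SeCTCA, the selenocysteine tRNA, had 1713, 2644 and 1997 CPM in RNAome, against 10.1, 24.3 and 14.8 CPM, a log2 difference of 7.03 ± 0.40 (edgeR adjusted p = 1.78e-06). The 15-nt row made up 80.9% of its RNAome counts, and its sequence lies whole within 26 rows listed under tRNA-LysCTT, so its assignment is uncertain. Without that row tRNA-SeCTCA had 308, 535 and 332 CPM in RNAome, against 10.1, 24.3 and 14.8 CPM, a ratio of 23.8 in place of 129. More widely, rows of 18 nt or less that also lie within a row of another anticodon held 6.76% to 11.9% of tRNA counts in RNAome and 11.8% to 13.6% in small RNA sequencing.

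The lengths of tRNA pieces differed by protocol. Pieces of 29 to 33 nt held 53.03%, 48.3% and 61.8% of tRNA counts in RNAome, against 26.1%, 18.8% and 20.97% in small RNA sequencing. Pieces of 34 to 36 nt held 15.8%, 17.2% and 21.7% in small RNA sequencing and had no rows in RNAome, whose table ends at 33 nt. Pieces of 14 to 15 nt held 9.61%, 9.45% and 6.29% in RNAome, against 0.194%, 0.176% and 0.161%, and those of 16 to 18 nt held 20.04%, 21.2% and 11.5%, against 34.1%, 37.6% and 33.6%. In each of these classes the groups did not overlap (exact permutation p = 0.1, the smallest possible). With sequences over 30 nt left out, 30 anticodons were higher and 3 lower (median 1.13). With only the sequences listed in both tables, 20 of 43 were higher and 8 lower (median 0.52).

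**Figure D5:**
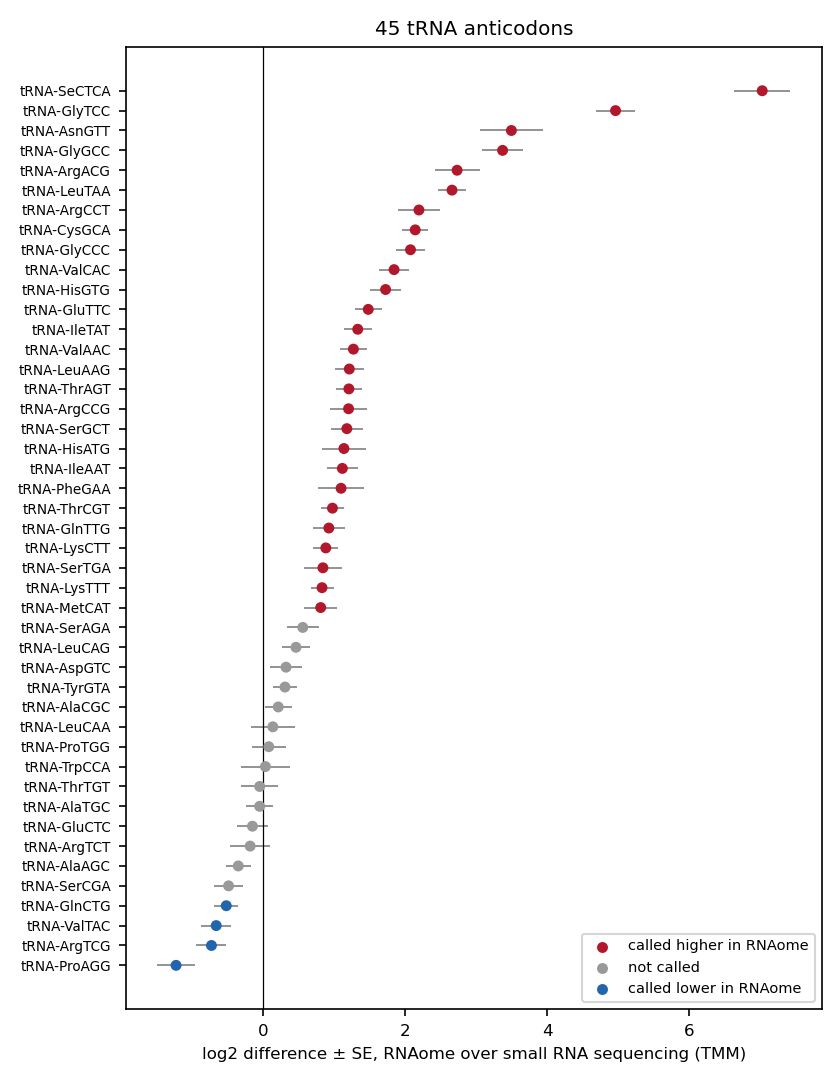
Log2 differences of 45 tRNA anticodons (RNAome over small RNA sequencing, TMM scale) with standard errors, in order of size, coloured by the call at an adjusted p under 0.05. tRNA-SeCTCA at 7.03 and tRNA-GlyTCC at 4.96 stand highest, and tRNA-ProAGG at -1.23 stands lowest.

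Replicates were tighter in the deeper protocol. Over 159 microRNAs with at least 100 CPM in each, the median SD of log2(CPM + 1) among 3 libraries was 0.29 in RNAome and 0.12 in small RNA sequencing. The differences were also seen in the cisplatin libraries, which come from other samples. Of 314 features called in the controls and tested there, 242 were called with the same sign and 2, miR-1195 and miR-379-3p, with the opposite sign.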

How the data were processed

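The authors deposited whole-number read counts per sequence, not normalized, in 1 table per protocol. Tools listed in the submitters' processing notes are Bowtie, TopHat and edgeR (no version, no role given), with build mm9. How adapters were trimmed, reads counted and rows filtered is not given. Here the counts of all sequences of a mature microRNA or a tRNA anticodon were added up, leaving out rows marked as fragments. Tests on names found in both tables used edgeR 4.0.16 under R 4.3.3 (quasi-likelihood, TMM, filterByExpr, two-sided, Benjamini-Hochberg over all 493 features) on 6 control libraries. SE is the absolute log2 difference divided by the square root of F. Single values were compared by exact permutation of 3 against 3 libraries. The fit was also run on simulated counts with equal spread in both protocols and no lowest value. Such counts do not cover the unequal spread and the lowest values of the real data.

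Named microRNAs were the 10 largest differences in each direction among called, non-overlapping microRNAs of log2 CPM at least 3.3, the 8 most abundant of each protocol, up to 4 members per list by adjusted p and 4 fixed names. Anticodons were the 5 largest in each direction and the 5 most abundant. The text gives part of these, and further names were chosen after their values were seen. Members and lists were chosen with earlier results of these data known. Nothing says that samples were separate cultures, and the p-values therefore reflect the spread of these samples alone, possibly a technical one. Protocol and library preparation cannot be told apart. The indexes of the small RNA controls recur among the cisplatin libraries, so these were not all in 1 pool, and the part of the pools was not tested. Mature sequences are from RefSeq. Alternatives covered scaling, filters, tools, rows and left-out libraries.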

Additional observations from a re-analysis of the deposited data

Results flagged for a closer look

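The difference between protocols was itself compared between cisplatin and control libraries, as an interaction in 12 libraries over 498 features. It passed at an adjusted p under 0.05 for 7 features, 3 with a larger and 4 with a smaller log2 difference after cisplatin, each at an edgeR adjusted p of 0.0265. The RNAome over small RNA log2 difference of miR-99b-5p was 1.96 in cisplatin and 3.79 in control libraries, an interaction of -1.83. That of miR-126-5p, a microRNA of endothelial cells, was 0.77 in cisplatin and 2.27 in control libraries, an interaction of -1.50. That of miR-379-3p was -0.69 in cisplatin and 0.48 in control libraries, an interaction of -1.17. That of miR-1957a was 1.47 in cisplatin and -0.39 in control libraries, an interaction of 1.87. That of miR-3096b-5p was 2.90 in cisplatin and 1.67 in control libraries, an interaction of 1.23. For miR-411-3p (interaction 2.76) and miR-1197-3p (interaction -2.65) the RNAome counts were 11 or fewer in every library, at or near the lowest value of the table.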

How the results depend on the processing

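With DESeq2, limma-voom, DESeq2 size factors, no filter, a minimum mean of 50 counts, 12 libraries with treatment as covariate, cisplatin libraries, names of 1 table counted as 0 in the other, lowest values set to 0, shared sequences or sequences of at most 30 nt (the last 4 chosen after seeing the data), the calls higher and lower stayed within 1.5 times 160 and 157. Without single libraries or sample codes they ranged from 132 to 161 and from 120 to 157. Same-coded libraries deviated together at correlations of 0.09, -0.05 and 0.14, and libraries of different codes at -0.19 to 0.13. With values so alike, they cannot decide whether same-coded libraries shared their RNA. By a limit of 0.1, which the same-code values did not all pass, the main fit left the code out. This choice does not show that the libraries were unpaired. With the code as a replicate block 163 were higher and 160 lower. With the reference mature sequence alone 81 were higher and 94 lower (66 and 74 by at least 1), over fewer features. MicroRNA totals gave 58 and 253 (46 and 219), table totals 41 and 366 (33 and 334), and fragment entries included 1204 and 1234 (1146 and 1178) over more features. Of 78 named features called, 69 kept their call when any 1 library was left out. The microRNA share differed by -27.4 to -21.6 percentage points with 1 library left out, and by -2.50 of microRNA and tRNA counts alone. Mean length over rows of at most 33 nt differed by 0.24 to 0.38 nt (over all lengths by 0.0672 nt, with overlapping groups, exact permutation p = 0.5), exact reads by -10.1 to -8.67 and 3′-shortened reads by 9.96 to 10.5 percentage points, and, as means over microRNAs, by 0.15, -1.33 and 0.55. Without miR-182-5p, reads short of the last 3′ base took 6.87% to 9.73% in RNAome and 7.32% to 7.44% in small RNA sequencing, with overlapping groups. With both arms at 50 counts or more, 4 of 28 hairpins differed in their larger arm.

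Among named features called in at least 1 of the 2 fits, log2 differences that changed sign with table totals were miR-302d-3p -1.59, let-7g-5p -1.20, miR-183-3p -1.22, miR-124-3p -1.21, miR-302a-3p -1.08, let-7a-5p -1.09, miR-200b-3p -1.004, miR-320-3p -1.03, miR-302c-3p -0.999, tRNA-LysTTT -0.85, miR-294-3p -0.85, miR-141-3p -0.81, miR-200a-5p -0.78, miR-877-3p -0.74, miR-195a-5p -0.64, miR-98-5p -0.55, miR-16-5p -0.56, let-7e-5p -0.54, tRNA-ValAAC -0.41, miR-292-5p -0.27, miR-25-3p -0.19, miR-182-5p -0.0803 and miR-669e-5p -0.0419. With fragment entries included they were miR-302d-3p -1.45, let-7g-5p -1.04, miR-183-3p -1.04, miR-124-3p -1.04, miR-302a-3p -0.91, let-7a-5p -0.93, miR-320-3p -0.85, miR-302c-3p -0.84, tRNA-LysTTT -0.67, miR-294-3p -0.66, miR-141-3p -0.66, miR-200a-5p -0.65, miR-877-3p -0.55, miR-195a-5p -0.48, miR-98-5p -0.39, miR-16-5p -0.38, let-7e-5p -0.36, tRNA-ValAAC -0.22, miR-292-5p -0.0766 and miR-25-3p -0.0031. With microRNA totals these were miR-183-3p -0.39, miR-320-3p -0.24, miR-294-3p -0.0699 and miR-141-3p -0.0150, and in cisplatin libraries miR-302a-5p 0.16 and tRNA-ArgTCG 0.20. Not called in either fit, but of changed sign, were also miR-302d-3p -0.76, let-7g-5p -0.41, miR-124-3p -0.38, miR-302a-3p -0.25, let-7a-5p -0.25, miR-200b-3p -0.19 and miR-302c-3p -0.22 with microRNA totals, miR-302d-3p -0.41 and miR-200b-3p -0.0026 in cisplatin libraries, miR-200b-3p -0.86 and miR-449a-5p -0.59 with fragment entries, and miR-449a-5p -0.75 with table totals. Table and microRNA totals move all features together by construction. With fragment entries included the log2 differences also moved, by a median of -1.50. For fragment entries and cisplatin libraries the cause was not tested. Depth limits microRNAs of a few counts in RNAome, which cannot be told from the lowest table value.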
